A study of Homo sapiens with 12 samples.

Results

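Expression of 6 genes for regulators of G protein signalling (RGS1, RGS2, RGS10, RGS14, RGS16 and RGS19) and of 4 genes for chemokine receptors (CXCR3, CXCR4, CCR1 and CCR2) was followed in OCI-AML2, a human cell line from an acute myeloid leukaemia. These 10 of the 55765 genes in the count table were taken by symbol, and all 10 passed the filter on low counts, which asks for 3.05 CPM in 3 libraries. RGS2 and CXCR3 passed it only through the S222A induced libraries, with 2 and 1 of the other 9 libraries at that level. The set was selected on 1 pair of measured changes, the higher counts of RGS1 and CXCR3 after induction of the S222A form of MEF2C, so all values of the S222A line on induction are given as a description, without a test. MEF2C is a transcription factor, and each single-cell clone expressed it from a construct switched on by doxycycline, as the wild type (WT) or with the S222A exchange of a serine for alanine. Cells in 3 ml received 600 ng doxycycline (induced) or vehicle (uninduced) for 48 h. The 4 groups, uninduced and induced cells of the WT line and of the S222A line, had 3 RNA sequencing libraries each. How many clones stand behind each construct is not stated, so a difference between the WT and S222A lines cannot be told apart from a difference between clones. Doxycycline-treated cells without a construct were not analysed here, so effects of the drug and of MEF2C cannot be told apart. No label says that the 3 libraries of a group came from separate cultures, and p-values measure the spread between these libraries, which may be technical.

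Chemokine receptors are seven-pass membrane proteins that signal mainly through Gi-type heterotrimeric G proteins and steer the migration of blood cells. RGS proteins speed up GTP hydrolysis by the G protein alpha subunit and so shorten the signal that a receptor sends. In blood, CXCR4 retains immature and leukaemic cells in the bone marrow, CCR2 directs monocytes out of it, and RGS1 is best known as a brake on chemokine responses of lymphocytes.

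The promoters of 5 of these genes are shown first, because the results below turn on them: RGS1 and CXCR3 had the widest range of group means, RGS16 and CCR2 differed between the induced lines, and RGS2 was highest in the S222A induced group. Each line gives the 250 bases before the annotated start, 5′ to 3′ on the gene's own strand, from RefSeq on GRCh38.p14; the counts themselves were made on hg19. Capitals mark a TATAAA box or a GC box, GGGCGG or its reverse complement.
RGS1, chr1:192575523-192575772, plus strand: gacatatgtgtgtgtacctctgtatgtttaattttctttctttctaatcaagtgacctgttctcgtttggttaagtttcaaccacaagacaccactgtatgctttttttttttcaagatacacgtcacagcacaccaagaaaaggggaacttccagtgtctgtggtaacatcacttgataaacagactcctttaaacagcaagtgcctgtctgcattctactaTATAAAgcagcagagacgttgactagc
RGS2, chr1:192808789-192809038, plus strand: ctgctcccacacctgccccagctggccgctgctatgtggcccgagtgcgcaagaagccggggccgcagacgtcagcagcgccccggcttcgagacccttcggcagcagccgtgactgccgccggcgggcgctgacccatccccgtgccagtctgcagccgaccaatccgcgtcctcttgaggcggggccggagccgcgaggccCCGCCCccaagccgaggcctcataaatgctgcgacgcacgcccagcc
RGS16, chr1:182604390-182604639, minus strand: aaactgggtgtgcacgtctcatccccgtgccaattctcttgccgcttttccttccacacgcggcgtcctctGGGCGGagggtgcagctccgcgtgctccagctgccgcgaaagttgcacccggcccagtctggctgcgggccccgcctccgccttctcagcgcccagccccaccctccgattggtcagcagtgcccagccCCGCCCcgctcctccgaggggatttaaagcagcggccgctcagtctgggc
CXCR3, chrX:71618512-71618761, minus strand: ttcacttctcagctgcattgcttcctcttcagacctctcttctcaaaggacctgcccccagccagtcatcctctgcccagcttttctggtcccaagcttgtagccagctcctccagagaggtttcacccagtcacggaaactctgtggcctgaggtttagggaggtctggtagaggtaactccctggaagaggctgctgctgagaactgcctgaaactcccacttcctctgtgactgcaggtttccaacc
CCR2, chr3:46353861-46354110, plus strand: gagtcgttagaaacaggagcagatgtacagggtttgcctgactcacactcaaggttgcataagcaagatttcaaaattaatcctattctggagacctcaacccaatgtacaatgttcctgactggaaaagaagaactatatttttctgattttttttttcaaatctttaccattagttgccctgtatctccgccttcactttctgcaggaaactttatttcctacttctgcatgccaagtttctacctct
All 10 genes were matched in the RefSeq promoter table, and motifs were searched on both strands from 250 bases before to 50 bases after the start. The MEF2 consensus, the AT-rich site that MEF2 factors bind, had a match in 0 of the 10 windows and in 2.99% of all 35116 promoters. TATAAA lay in the RGS1 window alone, 27 bases before the start, against 11.5% of all promoters. GGGCGG occurred in 4 of the 10, those of RGS2, RGS16, RGS19 and CXCR4, against 45% of all promoters. The GC content of the window was 41.7% for RGS1, 69.7% for RGS2, 56.3% for CXCR3 and 40.7% for CCR2, beside a median of 58.7% over all promoters. These matches describe letters in short windows and say nothing about binding.

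Library totals ran from 875710 to 13134791 counts, and 3 counts, taken as the floor, were worth 0.228 to 3.43 CPM (counts per 1e6 counts) depending on the library. The deepest library of each group stood apart from the other 8 on the first principal component of all genes, and S222A uninduced replicate 3, with 930960 counts, stood apart on the third. Reads of the MEF2C construct and of the cell's own gene are not separated, and together stood at 605 to 956 CPM over the 12 libraries. This total changed by a log2 of 0.08 ± 0.16 (SE) on induction in the WT line (edgeR adjusted p = 1) and of 0.34 ± 0.16 in the S222A line (edgeR adjusted p = 0.285, or 0.0282 with a term for the deepest libraries), and uninduced and induced libraries overlapped in both lines. Of 12 myeloid markers, 10 had counts in every group, while CEBPA and CD68 were at 0 throughout. A count of 0 need not mean that the RNA was absent, because the annotation and strand settings of the counting are not given. The summed myeloid level was 468 to 598 CPM in WT uninduced, 412 to 487 in WT induced, 728 to 928 in S222A uninduced and 318 to 378 in S222A induced libraries. CTSG carried most of this sum, with group means of 354, 281, 618 and 195 CPM in the same order. On S222A induction 2 of the 7 tested markers were lower and 0 higher by edgeR. ITGAM, which was not among the tested markers, went the other way at few counts. Its means were 0.77, 0.721, 0.674 and 3.03 CPM in the same order. T cell markers, relevant because RGS1 and CXCR3 are also lymphocyte genes, summed to 11.6 to 17.2, 10.3 to 20.2, 15.2 to 22.1 and 18.5 to 26.6 CPM in the same order. Most of that sum was CD4, which myeloid cells also express, with means of 11.8, 13.5, 16.3 and 20.4 CPM. CD8B and ZAP70 were at 0 in all groups. NK cell markers summed to 62 to 70.7, 62.8 to 72.8, 87.8 to 104 and 90.4 to 115 CPM in the same order. Most of the NK cell sum was NCAM1, with means of 50.4, 49, 69 and 65.6 CPM. B cell markers summed to 6.54 to 8.69, 3.36 to 14.2, 6.57 to 10.2 and 11.6 to 15.1 CPM. The part of these shifts in the results below was not tested.

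RGS1 had the widest range of the RGS genes. In the WT line it stood at 4.54, 7.15 and 2.04 CPM in uninduced replicates 1 to 3 and at 17.2, 11.2 and 10.5 CPM in the induced ones. In the S222A line the uninduced libraries held 10.9, 7.8 and 7.67 CPM and the induced ones 89.4, 96.8 and 128 CPM. The S222A induced libraries thus lay far above all 9 others, and in both lines every induced library was above every uninduced one. The group means ran from 4.58 ± 2.55 (SD, n = 3) in WT uninduced over 8.8 ± 1.85 in S222A uninduced and 13 ± 3.7 in WT induced to 105 ± 20.4 in S222A induced libraries. S222A uninduced and WT induced libraries overlapped, while the other neighbours in this order did not. The lowest levels rest on few reads, with 5 counts in WT uninduced replicate 3 and 7 in S222A uninduced replicate 3. On S222A induction the log2 fold change was 3.49 ± 0.33 (SE), or 11.3-fold (95% interval 6.91 to 18.3). In bulk RNA, more cells that express a gene and more RNA per cell cannot be told apart.

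CXCR3, the receptor for the interferon-induced chemokines CXCL9, CXCL10 and CXCL11, was close to the floor outside the S222A induced group. WT libraries held 0.505, 0.966 and 1.23 CPM uninduced and 2.05, 0 and 0.789 CPM induced, from 0 to 14 counts each. S222A uninduced libraries held 0.841, 2.87 and 4.38 CPM, from 4 to 7 counts, and S222A induced libraries 17.3, 22.5 and 17.8 CPM, from 50 to 223 counts. The S222A induced libraries stood above all others, and the other 3 groups overlapped with their neighbours. The log2 fold change on S222A induction was 3.3 ± 0.54 (SE), or 9.83-fold (95% interval 4.39 to 22). It was 2.5 without S222A uninduced replicate 1 and 2.57 without the deepest library of each group. Of its ligands, CXCL9 had no count and CXCL10 and CXCL11 did not pass the filter.

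RGS2, which prefers Gq over Gi, lies near RGS1 on chromosome 1 and was also highest in the S222A induced group. Its level was 4.04, 2.9 and 1.63 CPM in WT uninduced and 2.92, 4.48 and 1.58 CPM in WT induced libraries. It was 3.12, 2.46 and 0 CPM in S222A uninduced and 6.93, 9.59 and 11.2 CPM in S222A induced libraries. The S222A induced values were above the other 9, which overlapped one another and rested on 0 to 26 counts. The log2 fold change on S222A induction was 1.94 ± 0.5 (SE), or 3.84-fold (95% interval 1.82 to 8.08).

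The marrow-homing receptor CXCR4 and the monocyte receptor CCR2 moved the other way in the S222A line. CXCR4 stood at 300, 233 and 241 CPM in S222A uninduced and at 112, 132 and 153 CPM in S222A induced libraries. Its WT libraries, at 221, 264 and 167 CPM uninduced and 270, 164 and 196 CPM induced, overlapped each other and lay above the S222A induced ones. CCR2 stood at 66.9, 51.7 and 54.8 CPM in S222A uninduced and at 18.4, 15.6 and 23.4 CPM in S222A induced libraries. Its WT libraries spread from 30.3 to 73.2 CPM, with uninduced and induced values overlapping. On S222A induction the log2 fold change was -0.96 ± 0.22 (SE) for CXCR4, a level 1.95-fold lower, and -1.59 ± 0.32 for CCR2, a level 3.01-fold lower. The summed myeloid markers, mostly CTSG, were also lowest in the S222A induced libraries, while CD33 stood at 41.8 and 35.1 CPM and CSF3R at 66.5 and 53.9 CPM on average in S222A uninduced and induced libraries. Their part in the result was not tested.

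The other 5 genes changed by at most 0.33 on the log2 scale on S222A induction. Log2 fold changes were 0 ± 0.18 for RGS10, an RGS protein abundant in myeloid cells and microglia, and 0.33 ± 0.48 for RGS14, which also binds Ras-type GTPases. They were 0.13 ± 0.21 for RGS16, -0.03 ± 0.19 for RGS19 and 0.14 ± 0.22 for CCR1, a receptor for CCL3 and CCL5. The RGS14 value rests on S222A uninduced replicate 3, at 5.48 CPM beside 57.1 and 57.5 in the other replicates, and was -0.08 without that library. At least 2-fold were 3 higher and 1 lower, beside 4.52% and 1.64% of all genes tested. Since this contrast chose the set, nothing is read from these counts.

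**Figure D1:**
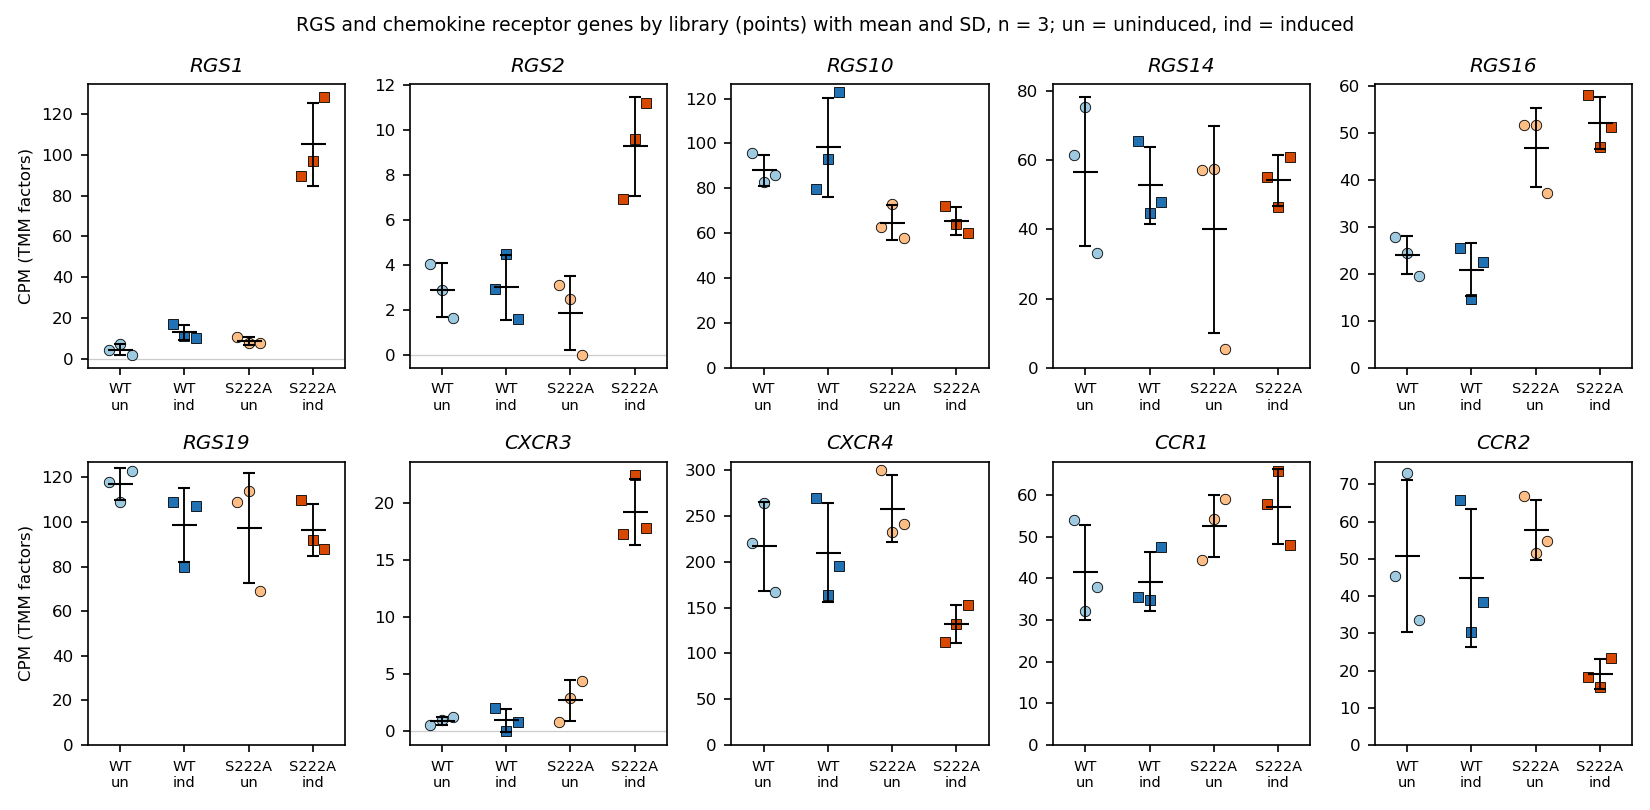
Level of each of the 10 genes in CPM (linear axis) in the 12 libraries, by group. Points are libraries, and bars give the group mean and SD (n = 3). RGS1, RGS2 and CXCR3 are highest and CXCR4 and CCR2 lowest in the S222A induced libraries, whereas RGS10 and RGS16 separate by line.

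The rule that chose the genes used no WT library, but earlier results of these data were known when they were chosen. On induction of WT MEF2C none of the 10 was called. edgeR's quasi-likelihood test called 0 of 10 at an adjusted p under 0.05, and DESeq2 and limma-voom called 0 each. By edgeR 1 gene, RGS1, had an unadjusted p under 0.05. RGS2 and CXCR3 are among the 10, although they passed the filter only through the S222A induced libraries. Few of their WT libraries reached the filter's level, so the absence of a call says little for them. Over all genes tested DESeq2 called 4, limma-voom 0 and edgeR a single gene of 11474, a share of 0.00872%. On data simulated for this comparison the test recovered 33% of genes changed 2-fold and 91% of those changed 4-fold, with 7 false calls. The simulation gave all genes the same spread and changed 100 genes at each fold. It held no difference between the deepest and the other libraries, so these shares may be too high for the real data. RGS1 had the largest change, a log2 of 1.45 ± 0.36 (SE), or 2.73-fold (95% interval 1.6 to 4.65), with an edgeR adjusted p of 1. Its 3 induced libraries lay above its 3 uninduced ones, as was the case, in that direction, for 2.81% of all genes. RGS1 passed the threshold without the filter on low counts (edgeR adjusted p = 0.0312) and with a term for the deepest libraries (edgeR adjusted p = 0.0179); its log2 value was 2.08 without WT uninduced replicate 2.

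CXCR3 gave a log2 of 0.52 ± 0.72 on WT induction, or 1.44-fold (95% interval 0.492 to 4.19). Its WT libraries hold 0 to 14 counts, and the value turned to -0.48 without the deepest library of each group. RGS2, also at few counts, gave -0.09 ± 0.56. Neither gene would have passed the filter on the WT libraries. The receptors with many counts gave narrower values, -0.04 ± 0.22 for CXCR4, -0.05 ± 0.23 for CCR1 and -0.14 ± 0.31 for CCR2. Among the RGS genes, RGS10 gave 0.16 ± 0.18, RGS14 -0.09 ± 0.48, RGS16 -0.12 ± 0.22 and RGS19 -0.23 ± 0.19.

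**Figure D2:**
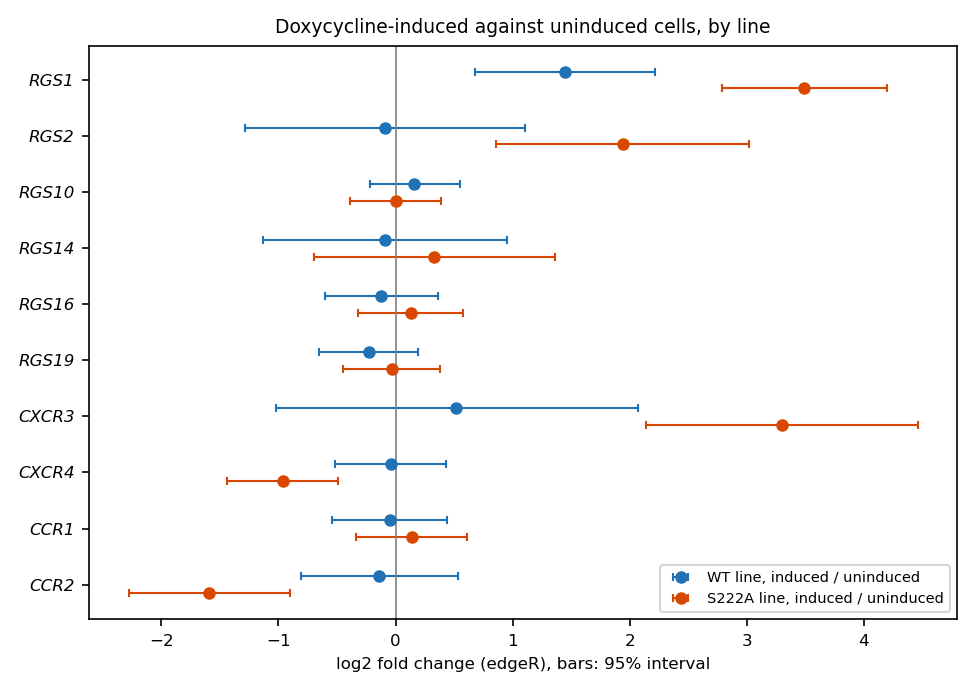
Log2 fold change (induced against uninduced) of the 10 genes in the WT and S222A lines, with bars of the 95% interval. RGS1 at 1.45 is the largest value in the WT line, and RGS1, CXCR3 and RGS2 are the largest and CCR2 the smallest in the S222A line.

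The difference between the lines' responses, S222A minus WT on the log2 scale, contains the contrast that chose the set and is likewise given as a description. It was 2.78 ± 0.95 (SE) for CXCR3, 2.05 ± 0.48 for RGS1 and 2.03 ± 0.75 for RGS2. The CXCR3 value was 1.97 without S222A uninduced replicate 1 and 3.89 without WT induced replicate 1, and the RGS1 value 1.41 without WT uninduced replicate 2. The difference was -0.92 ± 0.31 for CXCR4 and -1.45 ± 0.44 for CCR2. The other 5 genes lay between -0.16 (RGS10) and 0.42 (RGS14). At least 2-fold were 3 higher and 1 lower, beside 4.04% and 2.14% of all genes tested.

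Set against each other after induction, the 2 lines differed in RGS16 and CCR2. These comparisons share the S222A libraries with the contrast that chose the set, so RGS1 and CXCR3 are described and not tested, and so is RGS2, which passed the filter through the S222A induced libraries. edgeR called 2 of the other 7 genes, beside 6.34% of all genes tested. Of the 7, 5 had an unadjusted p under 0.05. DESeq2 called 3 of the 7, beside 1012 of all 11474 genes tested, and limma-voom 2, beside 986. In no comparison was the share of all genes under the unadjusted threshold taken, so nothing is read from counts at that threshold. RGS16, a small RGS protein that acts on Gi and Gq, stood at 25.6, 14.6 and 22.6 CPM in WT induced and at 58.2, 47 and 51.4 CPM in S222A induced libraries. The groups did not overlap, and RGS16 was 2.37-fold higher in the S222A line (95% interval 1.72 to 3.27, log2 1.24 ± 0.22, edgeR adjusted p = 0.00549). RGS16 passed the threshold in all 20 alternatives, with adjusted p-values from 4.21e-05 to 0.035.

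CCR2 was 2.4-fold lower in the S222A line (log2 -1.26 ± 0.32, edgeR adjusted p = 0.0335), at 18.4, 15.6 and 23.4 CPM against 65.8, 30.3 and 38.4 CPM. The CCR2 call was lost in 8 of 20 alternatives, among them without WT induced replicate 1 (log2 -0.86, adjusted p = 0.126) and without S222A induced replicate 2 (adjusted p = 0.135); it was also lost without WT induced replicate 3, without S222A induced replicate 1 or 3, without WT uninduced replicate 1, and without S222A uninduced replicate 2. The 2 induced groups did not overlap for CCR2. RGS2, given as a description, stood 3.51-fold higher in S222A induced than in WT induced libraries (95% interval 1.66 to 7.42), without overlap.

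CXCR4, RGS10 and CCR1 were separated between the induced lines without passing the threshold. CXCR4 was 1.59-fold lower in the S222A line (log2 -0.67 ± 0.22, edgeR adjusted p = 0.0922, or 0.000901 with a term for the deepest libraries). RGS10 had a log2 difference of -0.6 ± 0.18 (edgeR adjusted p = 0.0652, or 0.0343 by DESeq2 and 0.0336 without WT induced replicate 1), from 79.5, 93 and 123 CPM in WT induced to 72, 64 and 59.9 CPM in S222A induced libraries. CCR1 had a log2 difference of 0.53 ± 0.22 (edgeR adjusted p = 0.191), from 35.5, 34.8 and 47.4 to 57.8, 65.8 and 47.9 CPM. RGS14 and RGS19 differed by a log2 of 0.02 ± 0.47 and -0.05 ± 0.19. RGS1 and CXCR3, not tested here, stood 7.74-fold and 14-fold higher in the S222A line. For CXCR3 the log2 value was 3.8 and became 4.87 without WT induced replicate 1. Over the 10 genes 5 were higher and 3 lower without overlap, as were 15.2% and 12.9% of all genes tested. The 5 include RGS1 and CXCR3, chosen on their rise in the S222A induced libraries, and RGS2, which passed the filter through them. Nothing is therefore read from these counts. Of the genes tested here, RGS16 and CCR1 were higher and RGS10, CXCR4 and CCR2 lower.

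Before induction none of these genes was called between the lines. edgeR called 0 of the 7 genes, beside 0.392% of all genes tested, and 2 of the 7, RGS10 and RGS16, had an unadjusted p under 0.05. DESeq2 called 1 of the 7, beside 83 of all 11474 genes tested, and limma-voom 0, beside 42. RGS16 stood at 27.8, 24.5 and 19.6 CPM in WT uninduced and at 51.8, 51.7 and 37.2 CPM in S222A uninduced libraries. Its groups did not overlap either, and the difference of 1.99-fold (log2 1 ± 0.22) had an edgeR adjusted p of 0.0952. DESeq2 gave RGS16 an adjusted p of 0.0109, edgeR without the filter 0.0352 and edgeR with a term for the deepest libraries 0.0028. RGS10 stood lower in S222A libraries without overlap, at 62.9, 73.1 and 58 against 95.9, 82.7 and 85.8 CPM (log2 -0.44 ± 0.18, edgeR adjusted p = 0.616). Among the 7, RGS16 and RGS10 thus separated by line without overlap both before and after induction. The share of all genes that did so in both states was not taken, so nothing is read from this count. RGS16 means were 24 ± 4.1 and 20.9 ± 5.7 (SD, n = 3) in the WT line and 46.9 ± 8.38 and 52.2 ± 5.61 CPM in the S222A line. RGS10 means were 88.1 ± 6.91 and 98.4 ± 22.1 CPM in the WT line and 64.7 ± 7.66 and 65.3 ± 6.19 CPM in the S222A line.

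Uninduced differences of the other tested genes were -0.4 ± 0.48 (log2) for RGS14, -0.24 ± 0.2 for RGS19, 0.25 ± 0.22 for CXCR4, 0.34 ± 0.23 for CCR1 and 0.18 ± 0.31 for CCR2, none called. The RGS14 value was 0 without S222A uninduced replicate 3. RGS1, RGS2 and CXCR3, described and not tested, differed by a log2 of 0.91 ± 0.37, -0.21 ± 0.56 and 1.03 ± 0.72. For RGS1 this difference was 1.53 without WT uninduced replicate 2, and for CXCR3 it was 1.81 without S222A uninduced replicate 1. Without overlap, 2 of the 10 genes (RGS1 and RGS16) were higher and 1 (RGS10) lower, as were 6.24% and 6.1% of all genes tested.

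**Figure D3:**
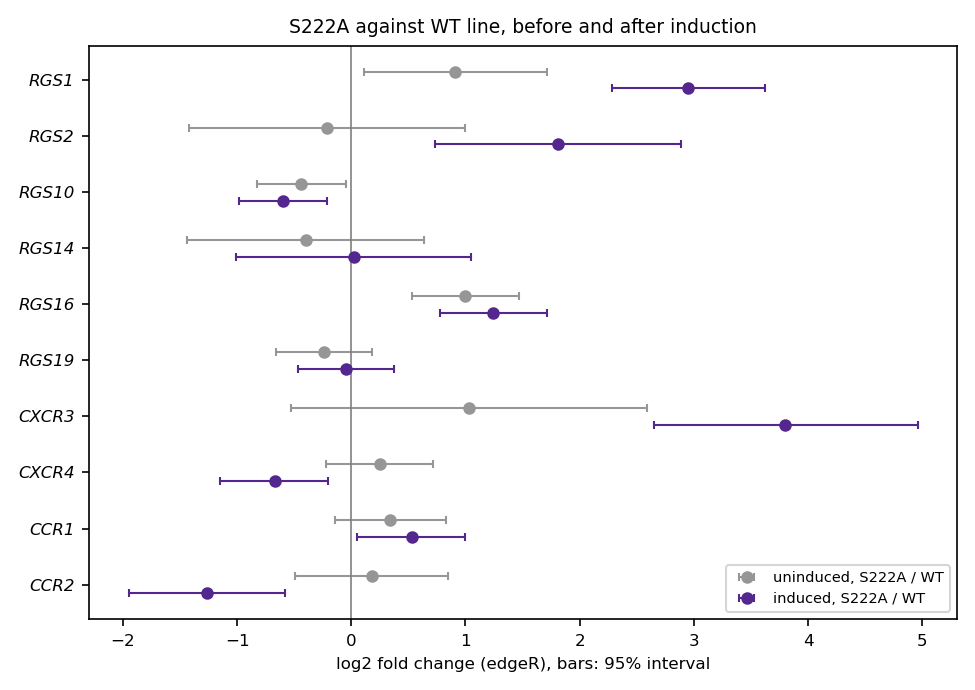
Log2 difference of the 10 genes between the S222A and WT lines, uninduced and induced, with bars of the 95% interval. RGS16 is near 1 in both states and RGS10 is below 0 in both, and RGS2 and CCR2 lie at 1.81 and -1.26 after induction.

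Levels of different genes are comparable per length. In WT uninduced libraries the mean level per kilobase of exon (GENCODE 29) was highest for CXCR4, at 97.7 CPM per kilobase, followed by RGS10 at 70.4 and RGS19 at 57.5. CCR1, RGS14, CCR2 and RGS16 stood at 15.1, 14.9, 13.6 and 9.88 CPM per kilobase. RGS2, RGS1 and CXCR3 were lowest, at 1.36, 1.11 and 0.482. In S222A induced libraries RGS1 reached 25.4 CPM per kilobase, above CCR1 at 20.9 and below RGS19 at 47.6, and CXCR3 reached 10.3, whereas CCR2 stood at 5.13. CXCR4 remained highest there, at 59.5. Across the 4 groups the highest mean exceeded the lowest 22.9-fold for RGS1 and 21.4-fold for CXCR3, and 1.21-fold for RGS19, an RGS protein that binds the Gi family, whose groups all overlapped with their neighbours.

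The S222A induction values were also taken in the deepest libraries alone, 1 per group, and in the other 8 libraries alone, as a description. On S222A induction the log2 ratio of the deepest libraries was 3.54 for RGS1, 1.83 for RGS2, 4.31 for CXCR3, -0.97 for CXCR4 and -1.51 for CCR2. Among the other 8 libraries the fitted values were 3.58, 2.25, 2.57, -0.95 and -1.65 in the same order. The part of depth in these values was not tested. Without S222A uninduced replicate 3, which stood apart, the log2 values were 3.43 for RGS1, 1.69 for RGS2, 3.66 for CXCR3, -1.01 for CXCR4 and -1.63 for CCR2, and RGS16 differed between the uninduced lines by 1.12 (edgeR adjusted p = 0.079). RGS1, CXCR4 and CCR2 had their highest value in the deepest library of all 4 groups, as did 17.4% of all genes tested.

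Genes of the same pathway that are not among the 10 were taken from lists, with 44 genes passing the filter. On S222A induction edgeR called 0 of the 44, beside 4.45% of all genes tested, and 6 had an unadjusted p under 0.05. DESeq2 called 2 of the 44, beside 811 of all 11474 genes tested, and limma-voom 0, beside 701. On WT induction edgeR called 0, beside 0.00872% of all genes tested, with 0 at an unadjusted p under 0.05, and DESeq2 and limma-voom called 0 each. These shares correspond to few genes among 44, and nothing particular to the lists is read from the counts. The median log2 change on S222A induction was 0.13 for the 10 genes and 0.01 for all genes tested. Among the lists it was 0.09 for 2 other RGS genes, -0.17 for 3 other chemokine receptors, -0.01 for 6 chemokine ligands and 0.23 for 8 G protein alpha subunits. It was 0.42 for 7 beta and gamma subunits, -0.37 for 6 receptor kinases and arrestins and 0.19 for 12 effectors downstream of Gi.

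**Figure D4:**
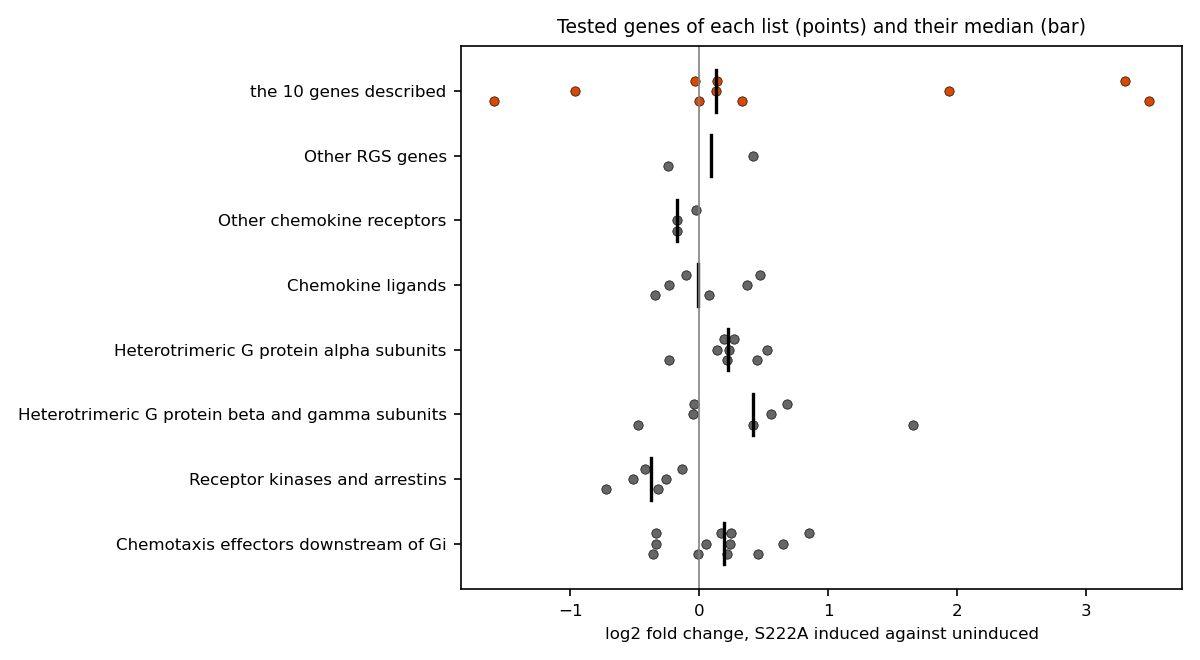
Log2 fold change on S222A induction of the 10 genes and of the genes of 7 related lists that passed the filter; each point is a gene and the bar is the list's median. RGS1, CXCR3 and RGS2 lie above and CCR2 and CXCR4 below the genes of the other lists. In those lists edgeR called 0 genes, DESeq2 2 and edgeR with a term for the deepest libraries 8, beside 511, 811 and 2052 of all genes tested. RGS1 and CXCR3 were chosen on their rise here, and RGS2 and CXCR3 passed the filter only through the S222A induced libraries. Nothing is read from where these genes lie.

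None of the genes named next was called on S222A induction by edgeR; ADRBK1 and PTK2B were with a term for the deepest libraries (adjusted p = 0.0185 and 0.0137). RGS18, a platelet and myeloid RGS gene beside RGS1 on chromosome 1, gave a log2 of -0.24 (edgeR adjusted p = 0.606), and RGS12 0.42 (edgeR adjusted p = 0.447). RGS21 had no count and RGS13 at most 2 counts in any library, although both lie in the same row of genes, RGS18, RGS21, RGS1, RGS13 and RGS2 (order from RefSeq on GRCh38). CXCR2, a receptor for interleukin-8, gave -0.17 (edgeR adjusted p = 0.787), and IL8 itself -0.34 (edgeR adjusted p = 0.811). The most abundant alpha subunits, GNAS (Gs) and GNAI2 (Gi), gave 0.45 and 0.22 (edgeR adjusted p = 0.345 and 0.474). GNB2 and GNB1, the common beta subunits, gave 0.42 and -0.05, ADRBK1 (GRK2, which phosphorylates active receptors) -0.42 and ARRB2 (which uncouples them) -0.26. PTK2B, a calcium-regulated kinase, gave 0.46 and GPSM3, a Gi-binding protein, 0.22.

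Between the induced lines edgeR called 1 gene of the 44, beside 6.34% of all genes tested. This was CCL5, a ligand of CCR1, which stood at 151, 205 and 159 CPM in WT induced and at 356, 316 and 330 CPM in S222A induced libraries. It was 1.95-fold higher there (log2 0.97 ± 0.15, edgeR adjusted p = 0.00342), and the call held in all 20 alternatives. Before induction CCL5 was already higher in the S222A line, at 227 to 254 against 158 to 194 CPM. That uninduced difference was 1.38-fold (log2 0.47 ± 0.15, edgeR adjusted p = 0.43). On S222A induction itself CCL5 gave a log2 of 0.47 ± 0.15 (edgeR adjusted p = 0.106, DESeq2 adjusted p = 0.0355).

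The genes whose pattern over the 12 libraries was most like that of RGS1, by root mean square difference in log2 CPM after centring, were SMIM14 (0.45), BTG2 (0.52), SRPK3 (0.53), DLL1 (0.57) and HIC1 (0.59), where the median gene stood at 1.76. BTG2, an antiproliferative gene, had means of 7.32 ± 0.236, 20 ± 1.9, 21.7 ± 3.28 and 145 ± 20.3 CPM (SD, n = 3) in uninduced and then induced libraries of the WT line, followed by those of the S222A line. SMIM14 had means of 20.1 ± 4.02, 38.1 ± 9.27, 26.7 ± 4.34 and 231 ± 25.7 CPM in that order. Most like CXCR3 were BCL3 (0.65), a transcript with a clone name (0.66), GPR82 (0.71), B3GALT4 (0.75) and PTCRA (0.76), with a median gene at 1.81. RGS1 and CXCR3 differed from each other by 1.08, which placed CXCR3 at rank 95 among the genes most like RGS1. These measures describe the same 12 libraries and share their depth differences. They include the S222A induced libraries, whose rise chose RGS1 and CXCR3, so the measure favours genes that rise there. Outside that group, SRPK3 and DLL1 had means of at most 0.754 and 0.273 CPM, which rest on few reads.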

How the data were processed

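RNA was sequenced in 12 libraries of OCI-AML2 clones. The authors deposited these as raw counts, 1 row per gene symbol and without normalization. STAR 2.4, HTSeq 0.6.1, DESeq2 and the build hg19 are named, without roles, per the submitters' processing notes. For annotation and strand, the setting is not given in the sources used here, so antisense reads cannot be told apart. The header line has a space in place of its last tab, and columns were matched by position and by the sample descriptions; the S222A columns are named without S222A and rest on that match.

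Genes were kept with edgeR's filterByExpr at a minimum count of 10, leaving 11474 genes with 99.47% of the counts. All 12 libraries entered 1 model with TMM factors and a mean per group (edgeR 4.0.16, R 4.3.3, robust quasi-likelihood test, 8 residual degrees of freedom), with Benjamini-Hochberg adjustment over all genes tested and calls at an adjusted p under 0.05. The SE was taken from the log2 fold change and its F value (size over root F). Levels are CPM with TMM factors. The floor of 3 counts covers counting error only. No 2 libraries of a group agreed within sampling noise (chi-square over degrees of freedom 2.64 to 35.22). The procedure was tested on simulated data.

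Alternatives were RLE and upper quartile factors, DESeq2 1.42.0, limma-voom (limma 3.58.1), no filter, leaving out each library, leaving out the 4 deepest libraries, a term for them, and a replicate block, 20 in all. Genes named beside the 10 are, per list, those called on induction or in the difference, otherwise the 2 tested genes with the highest mean CPM, plus the 5 genes most like RGS1 and CXCR3; CCL5 between the lines, the chromosomal neighbours of RGS1 and the ligands of CXCR3 were added after their values were seen. A result on a related gene is not reported here. RGS2 was planned as tested between the lines and is described, because it passed the filter through the S222A induced libraries. The members and lists were chosen with earlier results of these data known. Promoters are from RefSeq (GRCh38.p14) and exon lengths from GENCODE 29 (GRCh38); no coordinates were converted.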

Additional observations from a re-analysis of the deposited data

How the results depend on the processing

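Over all genes tested, the main counts of called genes were 1 on WT induction, 511 on S222A induction, 45 between the uninduced lines, 727 between the induced lines and 9 for the difference of responses. DESeq2 gave 4, 811, 83, 1012 and 34 in the same order. It called 1 of the 8 genes other than RGS1 and CXCR3 between the uninduced lines, and 2 pathway genes on S222A induction. Upper quartile factors gave 0 genes on WT induction and 0 pathway genes between the uninduced lines, and limma-voom gave 0 and 0 for the same and 3 pathway genes between the induced lines. Without the filter there were 2 genes on WT induction, 91 between the uninduced lines and 22 for the difference, 1 of the 10 genes on WT induction, 1 of the 8 between the uninduced lines, and 2 and 0 pathway genes on S222A induction and between the uninduced lines; the median of all genes moved to 0.12 on S222A induction and to 0.11 between the induced lines. Without the deepest library of each group, WT induction gave 0 genes, and 0 and 2 pathway genes were called between the uninduced and induced lines. A term for the deepest libraries gave 6, 2052, 218, 2480 and 147 genes in the order of the main counts, 1 of the 10 genes on WT induction, 1 and 6 of the 8 between the uninduced and induced lines, and 8 pathway genes each on S222A induction and between the induced lines; it moved the split on S222A induction from 321 higher and 190 lower to 1006 higher and 1046 lower.

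Leaving out 1 library at a time gave 0 to 0 genes on WT induction, 187 to 580 on S222A induction, 17 to 48 between the uninduced lines, 249 to 891 between the induced lines and 0 to 4 for the difference. It gave 1 to 3 of the 8 genes between the induced lines, against 3 in the main analysis. RGS2 is counted in all numbers of the 8 in this section, although it passed the filter through the S222A induced libraries. With RGS2 apart the main analysis called 2 of 7, and nothing is read from the counts that include it. Leaving out 1 library also gave 4 to 5 of the 10 with at least a 2-fold change on S222A induction and in the difference (4 each in the main analysis). It gave 0 to 1 pathway genes on S222A induction and 0 to 0 between the uninduced lines. Signs turned for values near 0. On WT induction CCR1 was 0.02 with limma-voom and 0.01 with the term for the deepest libraries, CXCR3 was -0.48 without the deepest libraries, and RGS19 between the induced lines was 0.08 without them. Leaving out 1 library moved WT induction over -0.34 to 0.24 for RGS2, -0.22 to 0.19 for CCR1, -0.37 to 0.19 for RGS14, -0.27 to 0.13 for CXCR4, -0.55 to 0.25 for CCR2, -0.56 to 0.81 for CXCR3, -0.28 to 0.02 for RGS16, -0.04 to 0.31 for RGS10 and -0.01 to 0.17 for MEF2C. It moved the uninduced lines over -0.75 to 0.03 for RGS2 and -0.07 to 0.55 for CCR2, the induced lines over -0.19 to 0.02 for RGS19 and -0.09 to 0.21 for RGS14, and S222A induction over -0.13 to 0.09 for GNB1, -0.08 to 1.01 for GNB2 and -0.08 to 0.42 for GPSM3. The cause of these changes was not tested. The lowest libraries of RGS2 and CXCR3 lie at or under 3 counts.

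No pairing by replicate number was seen: deviations of same-numbered libraries correlated at -0.53 to 0.64, with 6 of 18 pairs over 0.1, against 20 of 36 for other pairs. The deepest libraries of the groups do not all share a replicate number and correlated with each other at 0.61 to 0.76. Depth may thus hide a pairing, and this check cannot exclude one. With the replicate block 0, 235, 22, 350 and 0 genes were called in the order of the main counts, 1 of the 8 genes between the induced lines, and 0 pathway genes between the uninduced lines. CCR2 between the induced lines had an edgeR adjusted p of 0.0833 with the block.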
